A study of Mus musculus with 10 samples.

Results

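The genes described here were 9 secreted antagonists of Wnt signaling, namely Wif1, Sost, Dkk1, Dkk2, Dkk3, Sfrp1, Sfrp2, Sfrp4 and Frzb, out of 29583 genes in the deposited table. They were found by gene symbol, and all 9 were listed. The set was chosen by its function around Wif1 and Sost, and these were picked with their higher values in treated cells, and the day 10 counts of Sost, already known. The difference between treated cells and cells at 0 μM is therefore given for these genes as a description without a test.

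Wnt ligands bind Frizzled receptors together with the co-receptors LRP5 or LRP6, which stabilizes β-catenin and, with TCF/LEF factors, turns on target genes. In the osteoblast lineage this signal favors bone formation, and secreted antagonists set its level. Some of them bind the ligand itself, as WIF1 and the secreted Frizzled-related proteins (Sfrp1, Sfrp2, Sfrp4 and Frzb) do, whereas sclerostin, the product of Sost, and the Dickkopf proteins DKK1 and DKK2 bind the co-receptors. Sclerostin is made mainly by osteocytes, and Wif1 and Dkk2 are both known to rise as osteoblasts mature. DKK3 is related to the other Dickkopf proteins by sequence but does not bind LRP5 or LRP6 in the way they do.

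MC3T3-E1 cells, a clonal line of osteoblast precursors from the calvaria of newborn C57BL/6 mice, were grown for 5 or 10 days in standard medium that held the plant sterol β-ecdysterone at 0, 100, 150 or 200 μM. The study used subclone 14 of the line, and the label of the cell source instead reads bone marrow mesenchymal stem cells. No genotype was altered, and a vehicle for the 0 μM cultures is not given in the sources used here. RNA extraction is described with n = 3, and whether a library pools several cultures is not given in the sources used here. There was 1 library per dose and day, so that the 3 doses served as the replicates of treated cells within a day and p-values measure the spread between these libraries, dose differences included. A further 2 libraries were labelled untreated with no time and entered no main comparison. The 10 libraries held 27108562 to 58218009 counts. The libraries fell into 2 depth classes within each day: 0 μM and 150 μM on day 5, and 150 and 200 μM on day 10, were above 40000000 counts and the others below. The 2 untreated libraries stood apart from each other. Over 16794 genes, untreated library 1 had Spearman correlations of 0.98 to 0.983 with the 0 μM libraries and of 0.948 to 0.96 with the treated ones, whereas untreated library 2 had 0.942 to 0.946 and 0.96 to 0.964. In the 8 libraries at stated doses, the summed FPKM (fragments per kilobase and per 1000000 mapped, a level scaled to gene length and depth) of 11 osteoblast and matrix genes was 3520 to 6260. In bulk RNA, fewer cells expressing a gene and less RNA per cell cannot be told apart.

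Of the 9 genes, 4 had counts in every library (Wif1, Dkk2, Dkk3 and Sfrp2), and Sost had counts in 3 libraries. The other 4 (Dkk1, Sfrp1, Sfrp4 and Frzb) never exceeded 6 counts in a library. On GRCm38, Wif1 lies at chr10:121033960-121100650 on the plus strand (ENSMUSG00000020218), Sost at chr11:101962458-101967015 on the minus strand (ENSMUSG00000001494) and Dkk2 at chr3:132085292-132180304 on the plus strand (ENSMUSG00000028031). Dkk3 is on chromosome 7 (112116017 to 112159057, minus strand) and Sfrp2 on chromosome 3 (83766321 to 83774316, plus strand). All 9 are annotated as protein-coding, and 8 of them overlap no other annotated gene. Sfrp2 overlaps Gm26771 on the opposite strand, a gene that the table does not list.

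Wif1, Sost and Dkk2 were the 3 genes of the set with the highest values relative to 0 μM, and the sequence just upstream of each is shown to compare their promoters. The sequences are from RefSeq (GRCm38.p6), run 5′ to 3′ on the strand of the gene, and end before the annotated transcript, at base -1 for Sost and Dkk2 and at base -45 for Wif1 from the RefSeq start. Capitals mark matches on either strand to TATAAA (the TATA box core), CTTTG (a TCF/LEF core), TGTGGT (a RUNX core) or GGGCGG (a GC box). The windows are chr10:121033754-121033959 for Wif1, chr11:101967016-101967265 for Sost and chr3:132085042-132085291 for Dkk2.
Wif1: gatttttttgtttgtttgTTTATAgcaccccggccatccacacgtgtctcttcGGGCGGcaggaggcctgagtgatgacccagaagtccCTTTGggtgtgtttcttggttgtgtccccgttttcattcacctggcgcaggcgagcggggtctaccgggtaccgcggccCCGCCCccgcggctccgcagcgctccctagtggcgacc
Sost: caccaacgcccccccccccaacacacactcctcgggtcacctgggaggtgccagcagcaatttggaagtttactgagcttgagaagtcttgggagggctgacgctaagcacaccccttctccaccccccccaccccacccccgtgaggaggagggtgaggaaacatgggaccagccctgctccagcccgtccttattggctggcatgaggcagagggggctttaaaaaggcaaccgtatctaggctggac
Dkk2: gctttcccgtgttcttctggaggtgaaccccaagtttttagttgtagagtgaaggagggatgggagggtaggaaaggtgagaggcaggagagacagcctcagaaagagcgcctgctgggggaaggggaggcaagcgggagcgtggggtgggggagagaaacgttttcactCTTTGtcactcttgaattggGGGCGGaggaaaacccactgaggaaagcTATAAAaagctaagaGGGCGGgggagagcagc
Wif1 and Dkk2 each held 1 TATAAA, 1 CTTTG and 2 GGGCGG matches, and the Sost window held none of the 4 motifs. The TATAAA match of Dkk2 began at base -32 on the strand of the gene, and that of Wif1 at base -232 on the other strand. Promoter windows were matched for 6 of the 9 genes (Wif1, Sost, Dkk1, Dkk2, Sfrp2 and Frzb). Over the 250 bases before the start, CTTTG occurred in 4 of these 6, compared to 48.6% of 32851 mouse promoter windows. TATAAA and GGGCGG each occurred in 3 of 6, compared to 12.4% and 32.7% of windows. TGTGGT occurred in 1, Dkk1, compared to 14.0%. These matches describe letters in the window and were not tested as binding sites.

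Wif1, which binds Wnt ligands outside the cell, was near the detection limit at 0 μM and was one of the main antagonist transcripts after 10 days of treatment. At 0 μM it had 0.0744 FPKM on day 5 (10 counts) and 0.0591 FPKM on day 10 (5 counts). On day 5 it reached 2.67, 6.20 and 4.47 FPKM at 100, 150 and 200 μM. On day 10 it reached 17.1, 61.2 and 42.2 FPKM at the same doses, the last with 5719 counts. The 3 groups did not overlap, and the level was highest at 150 μM on both days. The means were 0.0667 ± 0.0108 FPKM at 0 μM (SD, n = 2), 4.44 ± 1.76 on day 5 (n = 3) and 40.2 ± 22.1 on day 10 (n = 3). As CPM (counts scaled to library size and TMM factor), the 0 μM libraries had 0.197 and 0.158, with exact 95% Poisson intervals of 0.0945 to 0.363 and 0.0514 to 0.369 that cover counting error only. Treated libraries were 34.9 to 77.5 times the 0 μM library of day 5 and 302 to 1040 times that of day 10, the latter against 5 counts. The edgeR fit over both days gave a log2 fold change of 7.88 (SE 0.89). Among fits that left out 1 library, those without a control moved it most, to 5.82 without that of day 10 and to 9.38 without that of day 5. The log2 fold change was 6.63 with untreated libraries in place of 0 μM, and 3.70 by limma on log2(FPKM + 1).

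**Figure D1:**
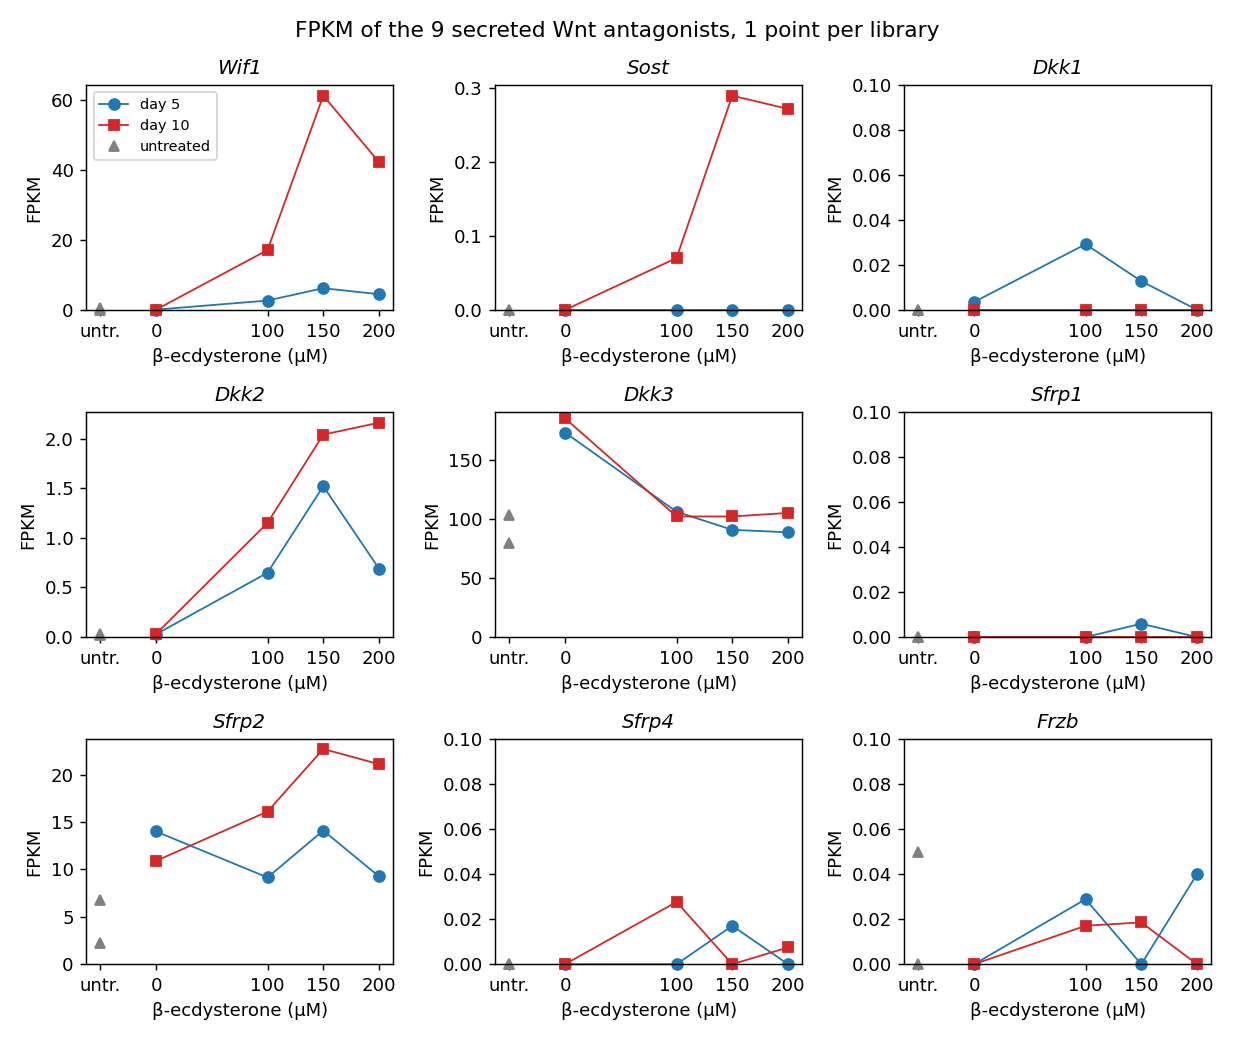
FPKM of each of the 9 genes (vertical axes, linear and scaled per gene) against β-ecdysterone dose in μM, with day 5 as circles, day 10 as squares and the 2 untreated libraries as triangles at the left (untr.), 1 point per library. Wif1 and Sost were highest in the 3 treated libraries of day 10, whereas Dkk3 was highest in the 2 libraries at 0 μM.

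Sost, which encodes sclerostin, was seen only in treated cells of day 10. It had 5, 38 and 34 counts at 100, 150 and 200 μM on day 10, which is 0.0702, 0.290 and 0.272 FPKM, and 0 counts in the other 7 libraries. All 3 values were low, with a mean of 0.211 ± 0.122 FPKM (SD, n = 3). In CPM they were 0.197, 0.712 and 0.654, with exact 95% Poisson intervals of 0.0638 to 0.459, 0.504 to 0.977 and 0.453 to 0.914. Where no read was counted the detection limit was set at 3 counts, which is 0.0949 CPM at 0 μM on day 10 and 0.0499 to 0.0998 CPM in the treated libraries of day 5. The Sost values of day 10 at 100, 150 and 200 μM were 2.07, 7.50 and 6.89 times that limit at 0 μM. At 100 μM the interval of Sost included the limit, so no lower bound on a fold is given there. A fitted fold change depends on the prior count when a group is at 0 and is not given.

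Dkk2, a Dickkopf protein that binds the LRP5 and LRP6 co-receptors, was also near the detection limit at 0 μM, at 0.0282 FPKM on day 5 (6 counts) and 0.0312 FPKM on day 10 (5 counts). At 100, 150 and 200 μM it had 0.648, 1.52 and 0.689 FPKM on day 5. On day 10 it had 1.15, 2.04 and 2.16 FPKM. All 6 treated libraries were above both 0 μM libraries, and the values of the 2 days overlapped, since 150 μM on day 5 was above 100 μM on day 10. The means were 0.0297 ± 0.00215 FPKM at 0 μM (SD, n = 2), 0.951 ± 0.490 on day 5 and 1.78 ± 0.553 on day 10 (SD, n = 3 each). The fitted log2 fold change of treated cells over 0 μM was 5.30 (SE 0.54).

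Dkk3 was the most abundant of the 9 transcripts in every library and the only one of the 5 tested that was lower than at 0 μM in all 6 treated libraries. It had 173 and 185 FPKM at 0 μM on days 5 and 10. With treatment it had 106, 90.7 and 88.6 FPKM on day 5 and 102, 102 and 105 FPKM on day 10 at 100, 150 and 200 μM. Every treated library was below both 0 μM libraries, and the values of the 2 days overlapped. The fitted log2 fold change was -0.80 (SE 0.10), which is within the fold limit of 1 used for calls. The untreated libraries had 103 and 79.7 FPKM, in or below the range of the treated ones, and with them in place of 0 μM the log2 fold change turned to 0.16.

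Sfrp2, a secreted Frizzled-related protein, was expressed in all libraries and was not on one side of 0 μM. It had 14.0 FPKM at 0 μM on day 5 and 10.9 FPKM on day 10. At 100, 150 and 200 μM it had 9.15, 14.1 and 9.26 FPKM on day 5 and 16.1, 22.7 and 21.1 FPKM on day 10. The treated libraries of day 10 were all above those of day 5 and above both 0 μM libraries. The fitted log2 fold change of treated cells over 0 μM was 0.22 (SE 0.27), and leaving out the 0 μM library of day 10 made it -0.37. The untreated libraries had 6.82 and 2.21 FPKM, below all others. With them in place of 0 μM the log2 fold change was 1.83, and Sfrp2 was then called higher.

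Dkk1, which like DKK2 binds LRP co-receptors, had 1 count at 0 μM on day 5, 3 counts each at 100 and 150 μM on day 5, and 0 counts elsewhere. Sfrp1 had 2 counts at 150 μM on day 5 and none elsewhere. Sfrp4 had 5 counts at 150 μM on day 5, and 4 and 2 counts at 100 and 200 μM on day 10. Frzb, also known as Sfrp3, had 4 and 5 counts at 100 and 200 μM on day 5, 2 and 4 counts at 100 and 150 μM on day 10, and 6 counts in untreated library 2. No difference in these 4 genes was detectable at this depth, and none passed the filter on low counts.

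In the comparison of 6 treated with 2 control libraries, 5 of the 9 genes passed that filter (Wif1, Sost, Dkk2, Dkk3 and Sfrp2). Of all 16794 genes tested, 13.4% were called higher and 5.98% lower in treated cells, by a change of over 1 on the log2 scale with an adjusted p below 0.05. Wif1, Sost and Dkk2 were among the genes called higher and no member was called lower. Nothing is read from that count, because Wif1 and Sost were picked on this contrast. The call of Sost was lost with depth class as a covariate, without the day covariate, and with untreated libraries in place of 0 μM.

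The order of the antagonists by FPKM changed with treatment. At 0 μM the order was Dkk3, Sfrp2, Wif1 and Dkk2, and the FPKM ranges of neighbors in that order did not overlap. Wif1 and Dkk2 could not be ordered there at their counts, which were 10 and 6 on day 5 and 5 each on day 10. On day 5 of treatment the order was Dkk3, Sfrp2, Wif1 and Dkk2, without overlap. On day 10 Wif1 stood above Sfrp2 in each of the 3 treated libraries, although the ranges over doses (17.1 to 61.2 and 16.1 to 22.7 FPKM) overlapped. Sost ranked next after Dkk2 on day 10, and Frzb, Sfrp4 and Dkk1 could not be ordered at their counts.

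As a share of the summed FPKM of the 9 genes, Dkk3 made up 92.4% and 94.4% at 0 μM on days 5 and 10. With treatment its share was 89.4%, 80.6% and 86.0% on day 5 and 74.8%, 54.3% and 61.5% on day 10 at 100, 150 and 200 μM. Wif1 went from 0.0398% and 0.0301% at 0 μM to 2.26%, 5.50% and 4.33% on day 5 and 12.5%, 32.4% and 24.7% on day 10. The sum was 187 and 196 FPKM at 0 μM, 103 to 118 FPKM on day 5 and 137 to 189 FPKM on day 10, and in 5 of the 6 treated libraries it was below both 0 μM values. The 150 μM library of day 10 (189 FPKM) lay between them.

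**Figure D2:**
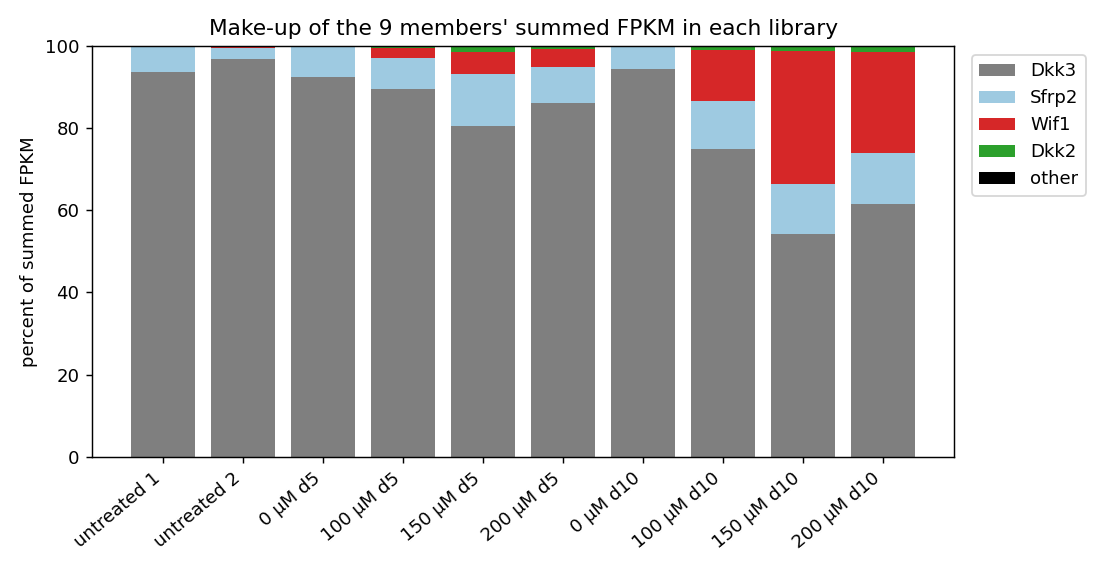
Percent of the summed FPKM of the 9 genes (vertical axis) made up by Dkk3, Sfrp2, Wif1, Dkk2 and the other 5 genes together in each of the 10 libraries (d5, day 5; d10, day 10). Dkk3 made up most of every bar, and the Wif1 part reached 12.5% to 32.4% in the treated libraries of day 10.

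The comparison of day 10 with day 5 within the 6 treated libraries was not used to pick Wif1, although the day pattern of Sost was known. Wif1 was higher on day 10 by a log2 fold change of 3.24 (SE 0.43, adjusted p = 0.0117 by edgeR's quasi-likelihood test, 3 libraries a day), which is 9.47-fold. It was the ninth largest fitted rise of the 16020 genes tested, of which 0.905% were called higher and 0.144% lower. At each dose Wif1 was higher on day 10, by 6.93-fold at 100 μM, 10.7-fold at 150 μM and 9.57-fold at 200 μM in CPM, whereas at 0 μM the ratio was 0.803, from 10 and 5 counts. The adjusted p was 0.0786 without the 200 μM library of day 5 and 0.0505 without that of day 10, at log2 fold changes of 3.25 and 3.23. With dose as the replicate block the log2 fold change was 3.18 (adjusted p = 0.000153).

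Depth moved with Wif1, and also with Dkk2, Sfrp2 and Sost. Within each day the treated libraries above 40000000 counts had the highest Wif1 level, which for day 5 was 150 μM alone. The same held for Dkk2 and Sfrp2 on both days and for Sost on day 10. At 0 μM, Sfrp2 was likewise higher in the deeper library, that of day 5. Among the shallower libraries Wif1 had 2.67 and 4.47 FPKM on day 5 and 17.1 FPKM on day 10, and among the deeper ones 6.20 FPKM on day 5 and 61.2 and 42.2 FPKM on day 10. With depth class as a covariate in edgeR, the log2 fold change of Wif1 between days was 2.79 (adjusted p = 0.000536). In that fit Dkk2 had 0.71 (adjusted p = 0.0407) and Sfrp2 had 0.83 (adjusted p = 0.003), both under the fold limit. Depth class and dose cannot be fully told apart, since 100 μM was shallow and 150 μM deep on both days.

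Of the other 3 antagonists tested between days, none was called. Sfrp2 was higher on day 10 by a log2 fold change of 0.97 (SE 0.17, adjusted p = 0.0222), just under the fold limit, and its day 10 to day 5 ratio was 1.91, 1.75 and 2.31 at 100, 150 and 200 μM compared to 0.779 at 0 μM. For Dkk2 the log2 fold change was also 0.97, with a larger error (SE 0.33, adjusted p = 0.16), and the ratio was 1.90, 1.46 and 3.17 compared to 1.34 at 0 μM. Without the 150 μM library of day 5, Dkk2 had a log2 fold change of 1.47 (adjusted p = 0.0325). Dkk3 had a log2 fold change of 0.20 (SE 0.11, adjusted p = 0.36). Sost did not pass the filter in this comparison, because only 2 libraries had 10 counts or more.

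**Figure D3:**
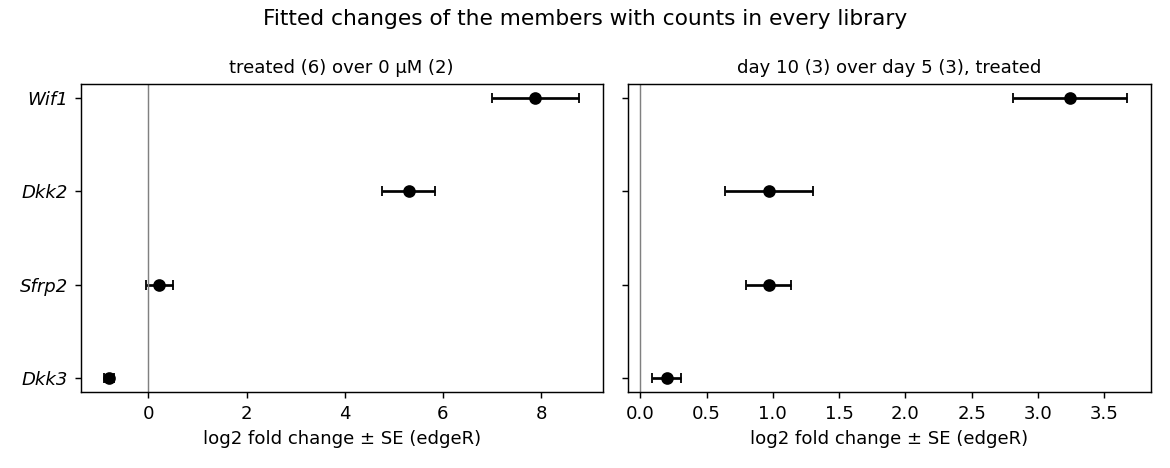
Fitted log2 fold changes (points) with their standard errors (bars) for the 4 genes with counts in every library, for 6 treated over 2 libraries at 0 μM (left, a description) and for day 10 over day 5 with 3 treated libraries each (right). Wif1 had the largest value of the 4 in both panels, 7.88 and 3.24, and Dkk3 was the only one below 0, in the left panel.

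Whether the change against 0 μM differed between days was tested directly, with 1 library at 0 μM on each day. Of 17799 genes tested, 0% were called higher and 0.0112% lower for this difference, and 1464 had an unadjusted p under 0.05. DESeq2 called 53 higher and 25 lower. For Wif1 the difference (day 10 minus day 5) was 3.56 on the log2 scale with a standard error of 2.29 (adjusted p = 0.727). Sfrp2 had a difference of 1.33 (SE 0.34, adjusted p = 0.415), and its adjusted p was 0.0408 with DESeq2. Dkk2 (0.57, SE 1.24) and Dkk3 (0.10, SE 0.21) did not pass either. The difference for Sost could not be fitted to a usable value, since it was at 0 in 3 of the 4 groups.

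Dose among the treated libraries was tested as a slope per 100 μM with day as a covariate. No gene was called by edgeR in either direction (0% each of 16020), with 380 at an unadjusted p under 0.05, and DESeq2 called 1 higher and 1 lower. The slope of Wif1 was 0.94 (SE 0.50), that of Dkk2 was 0.48 (SE 0.45), that of Sfrp2 was 0.15 (SE 0.23) and that of Dkk3 was -0.17 (SE 0.13), all with an adjusted p of 0.996. Single libraries set these slopes: that of Wif1 was 0.21 and that of Dkk2 was 0.07 without the 100 μM library of day 10, and they were 1.44 and 1.10 without the 200 μM library of day 5. Wif1 was below its 150 μM level at 200 μM on both days, and Dkk2 was so on day 5 only, so that levels did not rise steadily with dose.

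Among 10 other secreted modulators of Wnt signaling, 6 were tested and 1 was called higher in treated cells. This was Draxin, which binds LRP6 and was first described as an axon guidance protein. It had 0.193 and 0.281 FPKM at 0 μM, 2.51 to 4.25 on day 5 and 4.52 to 5.73 on day 10, a log2 fold change of 4.19 (SE 0.25, adjusted p = 3.52e-06). Notum, which removes the lipid of Wnt ligands (log2 fold change -0.44, adjusted p = 0.559), Apcdd1 (-0.83, adjusted p = 0.0174) and Igfbp4 (0.65, adjusted p = 0.00568) were not called. The gene lists were written with earlier results of these data known, and their counts are to be read against the 13.4% and 5.98% of all genes called.

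The receptors through which the antagonists act differed among themselves. Lrp4, which anchors sclerostin, was higher in treated cells, at 14.2 to 23.2 FPKM on day 5 and 19.3 to 39.2 FPKM on day 10 compared to 5.38 and 5.43 FPKM at 0 μM (log2 fold change 2.20, SE 0.30, adjusted p = 0.000316). Lrp5 had 102 to 161 FPKM in the treated libraries compared to 38.5 and 37.5 FPKM at 0 μM (1.89, SE 0.20, adjusted p = 7e-05). Lrp6, the partner co-receptor, was not called (-0.13, SE 0.13, adjusted p = 0.446), nor was Kremen1, which takes up LRP6 together with DKK1 or DKK2 (0.32, SE 0.14, adjusted p = 0.0927). Of 18 receptors and co-receptors, 15 were tested and 4 were called higher and 0 lower, the other two being Fzd9 (3.87) and Fzd7 (1.90). Untreated library 2 had 143 FPKM of Lrp5, within the treated range, and untreated library 1 had 40.5 FPKM. None of the 15 was called between days.

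**Figure D4:**
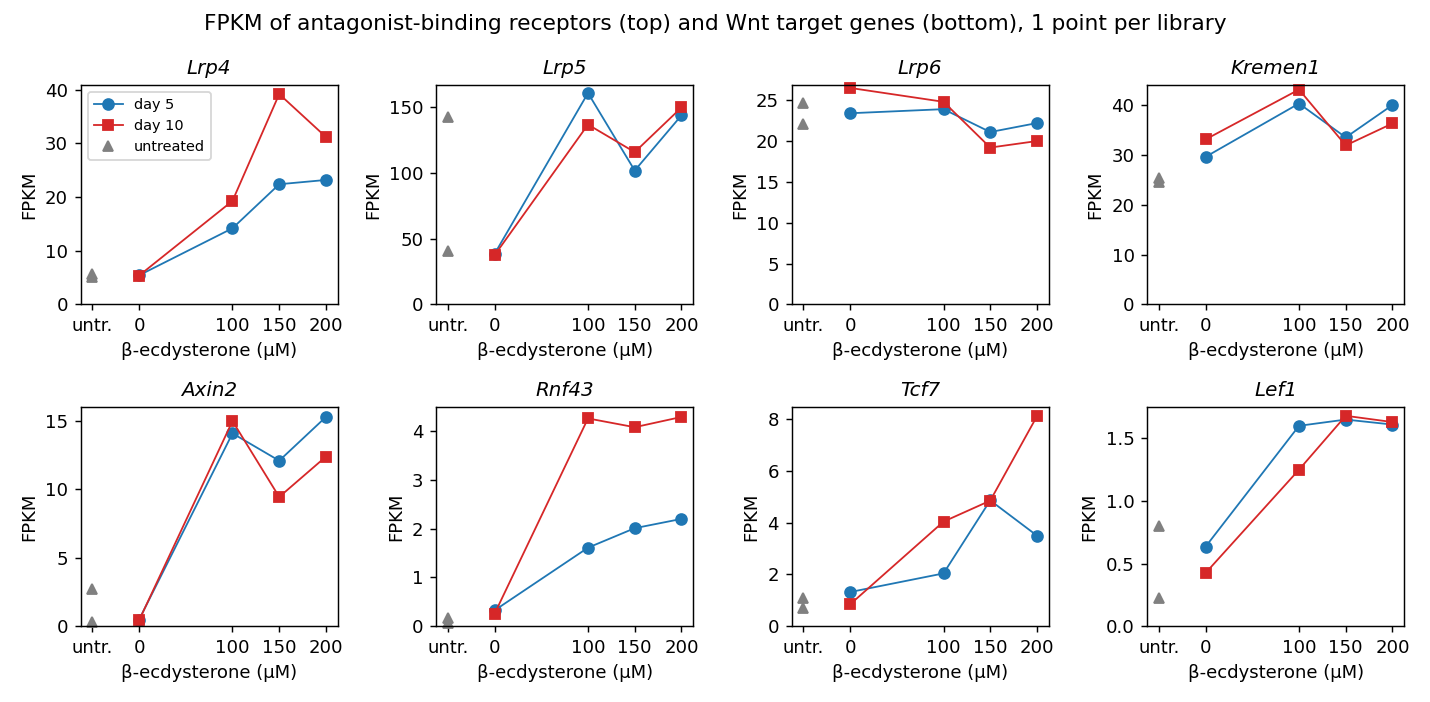
FPKM of 4 receptors that bind the antagonists (top row) and 4 Wnt target genes (bottom row) against β-ecdysterone dose in μM, with day 5 as circles, day 10 as squares and the untreated libraries as triangles at the left, 1 point per library. Lrp4, Lrp5, Axin2, Rnf43, Tcf7 and Lef1 were higher in all 6 treated libraries than at 0 μM. Lrp6 and Kremen1 lay within 19.2 to 26.5 and 29.6 to 43.1 FPKM in the 8 libraries at stated doses.

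Of 19 Wnt ligands, 9 were tested, of which 3 were called higher and 2 lower in treated cells. Wnt4 (log2 fold change 4.17, SE 0.52, adjusted p = 0.000195), Wnt11 (3.45) and Wnt6 (1.60) rose, and Wnt5b (-1.58, adjusted p = 0.00092) and Wnt9a (-1.21) fell. Wnt4 had 0.113 and 0.0491 FPKM at 0 μM and 0.926 to 2.65 FPKM in treated cells. No ligand was called between days. Among 7 R-spondins and their receptors, 5 were tested. Rspo2, a secreted protein that strengthens Wnt signaling, fell in treated cells (log2 fold change -2.74, SE 0.44, adjusted p = 0.000837), and fell further from day 5 to day 10 (-1.85, SE 0.28, adjusted p = 0.0146). Its levels were 14.7 and 21.2 FPKM at 0 μM, 3.52 to 7.55 on day 5 and 1.37 to 1.79 on day 10, without overlap between these groups. The R-spondin receptor Lgr5 was called higher (3.44, adjusted p = 0.0431) with at most 18 counts in a library.

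The target and feedback genes of β-catenin signaling were mostly higher or not called. Of 18 listed, 16 were tested, 8 were called higher and 0 lower, and their median log2 fold change was 0.89 compared to 0.05 over all genes tested. Nkd1, Nkd2, Axin2 and Lgr5 had the largest fitted values, of which Nkd1, with 0 counts in both 0 μM libraries and at most 20 in a treated one, and Lgr5, with 2 and 0 counts at 0 μM, depend on the prior count. Nkd2 had 4 and 0 counts at 0 μM and 23 to 181 with treatment. Axin2, a scaffold of the β-catenin destruction complex that Wnt signals induce, had 0.477 and 0.423 FPKM at 0 μM, 12.1 to 15.3 on day 5 and 9.45 to 15.0 on day 10 (log2 fold change 4.80, SE 0.25, adjusted p = 1.5e-06). Between days Axin2 differed by -0.07 (SE 0.18, adjusted p = 0.872), whereas Rnf43, a ligase that removes Frizzled receptors, was the 1 target called higher on day 10 (1.21, SE 0.14, adjusted p = 0.00618). Tcf7 (1.93, SE 0.47) and Lef1 (1.61, SE 0.20), which encode TCF/LEF factors, were also among the 8. Tcf7 had 0.843 and 1.32 FPKM at 0 μM and 2.04 to 8.11 FPKM in treated cells.

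Genes of the osteoblast lineage were compared as the setting in which these antagonists are known. Of 11 osteoblast and matrix genes tested, 4 were called higher and 0 lower. Ibsp, which encodes bone sialoprotein, had 0.292 and 0.371 FPKM at 0 μM, 31.6 to 104 on day 5 and 109 to 342 on day 10 (log2 fold change 8.61, SE 0.89). Sp7 (3.74), Runx2 (1.27) and Alpl were the others. Alpl had 0 and 2 counts at 0 μM and 486 to 3460 in treated cells, so that its fitted fold change depends on the prior count, and 18 and 105 counts in the untreated libraries. Ibsp (2.23, adjusted p = 0.0457) and Alpl (1.18, adjusted p = 0.0287) were also called higher on day 10 than on day 5. The late osteoblast and osteocyte list also holds Sost and Dkk1. Of its 7 tested genes, 3 were called higher (Sost, Mepe and Irx5) and 2 lower. Sost was picked on this contrast, so nothing is read from its part in that count. Mepe, a matrix phosphoglycoprotein of osteocytes, had 0 and 3 counts at 0 μM and 5 to 95 counts in treated cells and was higher on day 10 (2.11, adjusted p = 0.045). Dmp1, an osteocyte matrix protein, was called lower (-2.10, SE 0.61, adjusted p = 0.0189), as was Fam20c, a kinase for such proteins (-1.14). Dmp1 had 1.35 and 0.579 FPKM at 0 μM on days 5 and 10. With treatment it had 0.0821 to 0.262 FPKM on day 5 and 0.110 to 0.548 FPKM on day 10. The 200 μM library of day 10 was thus close to 0 μM of that day. The untreated libraries had 3.68 and 0.134 FPKM of Dmp1. The summed FPKM of this list was 72.1 to 81.1 at 0 μM, 87.8 to 144 on day 5 and 75.1 to 93.1 on day 10.

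Marker lists of other cell types had summed levels below that of the osteoblast and matrix genes, and each held genes called higher in treated cells. The chondrocyte and macrophage sums were the highest of these lists. Of 10 chondrocyte genes 9 were tested and 4 were called higher (Hapln1, Col9a2, Sox5 and Sox6). Their list had a summed level of 19.7 to 21.6 FPKM at 0 μM and 20.5 to 33.8 FPKM in treated cells. Acan, Col9a1 and Hapln1 were at 0 at 0 μM but not throughout treated cells of either day. Of 8 skeletal muscle genes 5 were tested and 2 were called higher (Ckm and Des), at sums of 0.67 to 0.816 FPKM at 0 μM and 1.52 to 2.95 FPKM with treatment. The muscle regulators Myod1 and Myf5 were at 0 at 0 μM and in treated cells of day 5, but not in all treated libraries of day 10. Of 6 endothelial genes 4 were tested and 2 were called higher (Cdh5 and Tek), at sums of 0.18 to 0.254 and 0.454 to 0.628 FPKM. Of 10 adipocyte genes 5 were tested and 1 was called higher (Lep), at sums of 2.36 to 2.57 and 2.15 to 4.85 FPKM, with Adipoq, Cfd, Cidec and Retn at 0 at 0 μM, of which Cfd and Retn were also at 0 in treated cells of day 5 and Cfd and Cidec in those of day 10. Of 9 macrophage genes 5 were tested, with Lyz2 higher and Cd14 lower, at sums of 18.2 to 26.9 and 24.5 to 45 FPKM, and Tyrobp was at 0 in all these libraries. The part of other cell types in the levels of Wif1, Sost and Dkk2 was not tested.

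The genes whose log2 CPM followed Wif1 most closely over the 10 libraries, out of 11858 ranked, were Gatb (Pearson r = 0.995), which encodes a subunit of a mitochondrial amidotransferase, Tmem229b (0.989), Lama2 (0.984), which encodes a laminin chain, Tmem65 (0.982) and Inpp5j (0.982). Inpp5j had 0 and 0.0156 FPKM at 0 μM, 0.629 to 2.19 on day 5 and 7.54 to 10.9 on day 10. Dkk2 had an r of 0.964 with Wif1, and Sost 0.774. For Sost the closest were Gm2a (0.952), the activator protein of ganglioside breakdown, Cdh23 (0.951), a cadherin, Fam198a (0.944), Gm15128 (0.939) and Lrrc75b (0.928). Gm2a had 3.97 and 4.50 FPKM at 0 μM, 6.45 to 6.79 on day 5 and 14.0 to 21.8 on day 10. These correlations are descriptions over libraries that share the division into treated and other cells.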

How the data were processed

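RNA was sequenced from 10 libraries of MC3T3-E1 cells. Oligo(dT)-selected mRNA was made into TruSeq libraries and run on the Illumina platform. The authors deposited raw read counts in 1 table, for 22036 Ensembl genes and 7547 newly assembled loci. The same table holds FPKM values that the authors computed per gene, and results of the authors' own comparisons of libraries, which were not used. The submitters' processing notes name HISAT2 2.0.4 and GATK 3.2-2, and the genome build and the counting program are not given in the sources used here. Positions came from GENCODE M21 (GRCm38) by Ensembl identifier.

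Counts were tested with edgeR 4.0.16 (quasi-likelihood, TMM, filterByExpr) in R 4.3.3, with limma 3.58.1 and DESeq2 1.42.0 as alternatives, and tables were made with pandas 2.3.3, numpy 2.4.6 and scipy 1.17.1. p-values were two-sided and adjusted by Benjamini-Hochberg over all genes tested. Between treated cells and 0 μM (day as a covariate) and between days, calls needed a change of over 1 on the log2 scale and an adjusted p below 0.05, and for dose and the difference between days the adjusted p alone. On simulated counts with 200 changed genes the test recovered 199 (treated against 0 μM, 16326 genes) and 199 (between days, 16072 genes). It recovered 198 for dose (16027 genes) and 180 for the difference between days (16966 genes). Unchanged genes called were 5, 1, 9 and 12 in that order of comparisons. Changes were planted only in genes above a minimum mean count, and all genes had the same simulated spread. The planted changes all had the same size. That size was above every fitted dose slope of a member, and above the fitted differences between days of Sfrp2, Dkk2 and Dkk3. Recovery was therefore not measured for changes as small as these, or for genes with few counts, such as Sost.

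The members, lists and comparisons were chosen with earlier results of these data known. Named were all 9 members, up to 4 called genes per list by absolute log2 fold change, the receptors that bind a member, and the 5 genes best correlated with Wif1 and with Sost (mean of at least 1 CPM, log2 CPM with a prior count of 2). Of the listed genes, Notum, Apcdd1, Igfbp4, Tcf7, Lef1, Rnf43, Fam20c and the marker genes listed at 0 were named in addition, after their values were seen. No libraries were pooled in this work. Pairs of libraries were compared only within the treated cells of a day and within the untreated cells. None of these pairs agreed within sampling noise (lowest chi-square per degree of freedom 16.1).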

Additional observations from a re-analysis of the deposited data

Results flagged for a closer look

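Wif1 was above the 0 μM level in data outside the comparisons. Untreated library 2 had 1.11 CPM of Wif1 (33 counts, 0.404 FPKM), with an exact 95% Poisson interval of 0.763 to 1.56 CPM, compared to 0.197 and 0.158 CPM at 0 μM and 0.0982 CPM (3 counts) in untreated library 1. The label gives no time for this library.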

How the results depend on the processing

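Between treated cells and 0 μM, calls of members are descriptions, since Wif1 and Sost were picked on that contrast. The filter of at least 10 counts in every library removed Wif1, Sost and Dkk2 and left 0 members called and 1099 genes higher. Without a fold limit 3790 genes were higher and 3490 lower, with limma on log2(FPKM + 1) 526 and 612, with untreated in place of 0 μM 1078 and 460, and with untreated added to 0 μM 1286 and 453. Leaving out each library gave 1590 to 2281 higher, 765 to 1010 lower and 2 to 3 members. Untreated in place of 0 μM turned Dkk3 to 0.16 and moved Sfrp2 to 1.83, at which it was called higher. Leave-out values of Sfrp2 ran from -0.37 to 0.96. Fitted values of Sost, which depend on the prior count, ran from 0.00 (no day 10 library at 0 μM) to 7.46, and Sost was filtered out without the 150 or the 200 μM library of day 10. Sost also lost its call with depth class as a covariate, without the day covariate, with limma and with untreated in place of 0 μM.

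Between days Wif1 kept its call under all alternatives except 2 of the 6 leave-outs (without the 200 μM library of day 5 or of day 10), where 18 and 27 genes were higher. Leave-outs gave 18 to 186 higher, 0 to 38 lower and 0 to 4 members. DESeq2 gave 218 higher and 60 lower, no TMM 72 lower, at least 1 count 274 higher, 72 lower and 2 members (Sost and Wif1), limma 36 and 4, no fold limit 333, 115 and 2 members, depth class 46 lower, and the fit with 0 μM libraries 2 members. With dose as the replicate block the log2 fold change of Wif1 was 3.18 (adjusted p = 0.000153), and the block changed no call of a member. Doses mark no shared culture in the labels.

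For dose, DESeq2 called 1 higher and 1 lower, at least 1 count kept gave 49 and 59 and 1 member (Wif1, adjusted p = 2.65e-05), and leave-outs gave 0 to 1 higher. Leave-out slopes of Sfrp2 ran from -0.06 to 0.45, below 0 also at -0.01, those of Wif1 from 0.21 to 1.44 and those of Dkk2 from 0.07 to 1.10. For the difference between days, DESeq2 called 53 higher, 25 lower and 1 member (Sfrp2), at least 1 count 77, 23 and 1 member, at least 10 counts in every library 1 lower, and leave-outs 0 to 5 higher and 0 to 4 lower. Without either 0 μM library this difference could not be fitted. The causes were not tested. The 4 genes under 10 counts cannot be compared at this depth.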
